A study of Mus musculus with 2 samples.

Results

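The lysosomal genes described here are 35 of the 31053 genes counted in both libraries. They were taken from a fixed list of names with no cut on their values, but the list was chosen with earlier results of these data known. It holds 7 cysteine cathepsins, the other cathepsins and legumain (3), membrane proteins (6), glycosidases (6), lipid and sphingolipid proteins (5), proton pump subunits (3), and 5 other soluble or disease genes. All 35 names were found in both matrices and all 35 are accounted for below. The lysosome is the acidic compartment in which a cell breaks down what it takes up or recycles. A proton pump (the V-ATPase) acidifies it, cathepsins and other hydrolases cut proteins, sugars and lipids, and membrane proteins such as Lamp1 and Lamp2 form its wall. Macrophages, which clear particles and dead cells, are known for a large lysosomal system, and many lysosomal genes share a short promoter motif that binds the transcription factor TFEB and its relatives.

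The cells came from livers of mice with floxed alleles of the 3 Rb family genes (Rb1, Rbl1 and Rbl2), a triple knockout model of hepatocellular carcinoma. They were sorted for YFP, which marks Cre recombination. Early lesions, pooled from 3 mice, and macroscopic lesions, for which the number of mice is not stated, gave 1 library each of untreated cells. Age, strain, the promoter or route that delivered Cre and the date of recombination are not stated in the labels. No deposited file marks tumour cells, so barcodes rich in albumin RNA stand here for the hepatocyte lineage, with normal and tumour cells not told apart. With 1 library per stage there is no replicate and no test. Intervals of levels and ratios are 95% counting intervals of the summed molecules. Intervals of medians are 95% intervals taken from the ranked barcodes or genes. None of them covers animals or preparations. Stage, library and animals (with their sex) cannot be told apart.

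A barcode stands for 1 droplet and a UMI for 1 captured RNA molecule. Barcodes with at least 1000 UMIs were assigned by gates on raw UMIs: at least 3 from Clec4f, Cd5l and Marco for Kupffer cells (the resident liver macrophages), at least 3 from Gpnmb and Mmp12 for other macrophages, at least 0.5% from Alb for hepatocytes, at least 2 from Krt19 and Krt7 for bile duct cells, and at least 2 from Cd3e and Trbc2 for T cells. The early library kept 2620 of 3221 barcodes with a median of 2946 UMIs, and the macroscopic library 241 of 256 with a median of 14223. The classes of the early library held 1830 Kupffer, 197 other macrophage, 54 hepatocyte, 89 duct and 72 T cell barcodes. In the macroscopic library there were 1 Kupffer, 8 other macrophage, 101 hepatocyte and 20 T cell barcodes and no duct barcode. The libraries shared 0 barcodes. Barcodes of more than 1 gate were left out, 96 of them early barcodes of both macrophage gates, and 263 early and 106 macroscopic barcodes passed none. Of the 101 macroscopic hepatocyte barcodes, 57 had under 0.05% of UMIs from Malat1, a nuclear RNA, against 3 of 54 early ones. All 11 listed Kupffer markers had UMIs in the early Kupffer class and also in the early other macrophages, at a summed 32907 and 8843 CPM. The gate genes Clec4f, Cd5l and Marco are among them, so their part in this difference is set by the gating. In the 8 macroscopic other macrophage barcodes Vsig4, Timd4 and Folr2, which no gate uses, were at 0, as were the gate genes Clec4f and Marco.

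Promoter sequence from RefSeq (build GRCm38.p6) was available for 29 of the 35 genes, as 250 bases before to 50 after the annotated start. The 8-letter motif TCACGTGA, the form known for TFEB family binding at lysosomal genes, was present in 5 of these 29 promoters (17.2%), namely Atp6v1a, Cln3, Ctsa, Ctsd and Gla, against 1.12% of 27025 genes. Its 6-letter core CACGTG, which every TCACGTGA contains, was present in 11 of 29 (37.9%), adding Ctsf, Ctsl, Gaa, Glb1, Lamp1 and Lgmn, against 8.09% of all genes. Both motifs read the same on both strands. A match is a description of letters and not a measured binding site. All 7 sites of the 5 genes are shown with the motif in capitals, because they are what these promoters have in common, each 30 bases long and on the strand of its gene:
Atp6v1a, chr16:44139373-44139402, minus strand: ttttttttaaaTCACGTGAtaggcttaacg
Cln3, chr7:126583340-126583369, minus strand: cacgggtactgTCACGTGAcccccaacctg
Ctsa, chr2:164833749-164833778, plus strand: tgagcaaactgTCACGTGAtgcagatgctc
Ctsa, chr2:164833766-164833795, plus strand: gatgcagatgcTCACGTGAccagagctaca
Ctsd, chr7:142387908-142387937, minus strand: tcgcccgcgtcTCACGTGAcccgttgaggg
Gla, chrX:134601215-134601244, minus strand: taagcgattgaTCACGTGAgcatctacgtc
Gla, chrX:134601182-134601211, minus strand: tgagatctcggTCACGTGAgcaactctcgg

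In the GENCODE M21 models the Gla sites lay upstream of the gene, the Atp6v1a site in an intron, and those of Cln3, Ctsa and Ctsd in an exon of at least 1 transcript of their gene. Lamp1, found in every class below, and Ctss, nearly absent from hepatocytes, are set side by side to show how their promoters compare; nothing about a factor follows from these letters. The 250 bases before the start of Lamp1 hold CACGTG 4 times, at -61, -45, -28 and -15 from the start, and those before Ctss hold it 0 times. Capitals mark the motif:
Lamp1, chr8:13158911-13159160, plus strand: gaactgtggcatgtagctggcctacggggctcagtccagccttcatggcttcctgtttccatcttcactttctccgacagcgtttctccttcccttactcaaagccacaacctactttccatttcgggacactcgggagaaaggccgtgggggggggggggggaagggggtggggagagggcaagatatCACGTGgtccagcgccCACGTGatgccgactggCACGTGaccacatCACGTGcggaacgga
Ctss, chr3:95526536-95526785, plus strand: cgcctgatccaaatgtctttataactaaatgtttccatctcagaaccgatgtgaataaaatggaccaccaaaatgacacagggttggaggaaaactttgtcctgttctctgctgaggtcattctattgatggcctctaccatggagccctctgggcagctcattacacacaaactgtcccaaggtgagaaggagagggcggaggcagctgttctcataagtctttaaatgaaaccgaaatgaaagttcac

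Levels of the lysosomal genes are given as CPM, the UMIs of a gene divided by all UMIs of its class, times 1000000. Each molecule is counted once at its 3' end, so levels can be compared between genes without a correction for length. In the early library the highest class was a macrophage class for 34 of the 35 genes: other macrophages for 20 and Kupffer cells for 14. Over all 11391 genes compared among the 5 classes, other macrophages were highest for 6.28% and Kupffer cells for 16.3%. Duct cells were highest for 1 gene, Smpd1 (background 35.7%), and hepatocytes and T cells for 0 (background 20% and 21.7%). In the macroscopic library, with 3 classes, the 8 other macrophage barcodes were highest for 33 of 35 (background 22.1%), hepatocytes for Smpd1 (background 41.9%) and T cells for Gla (background 36%).

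**Figure D1:**
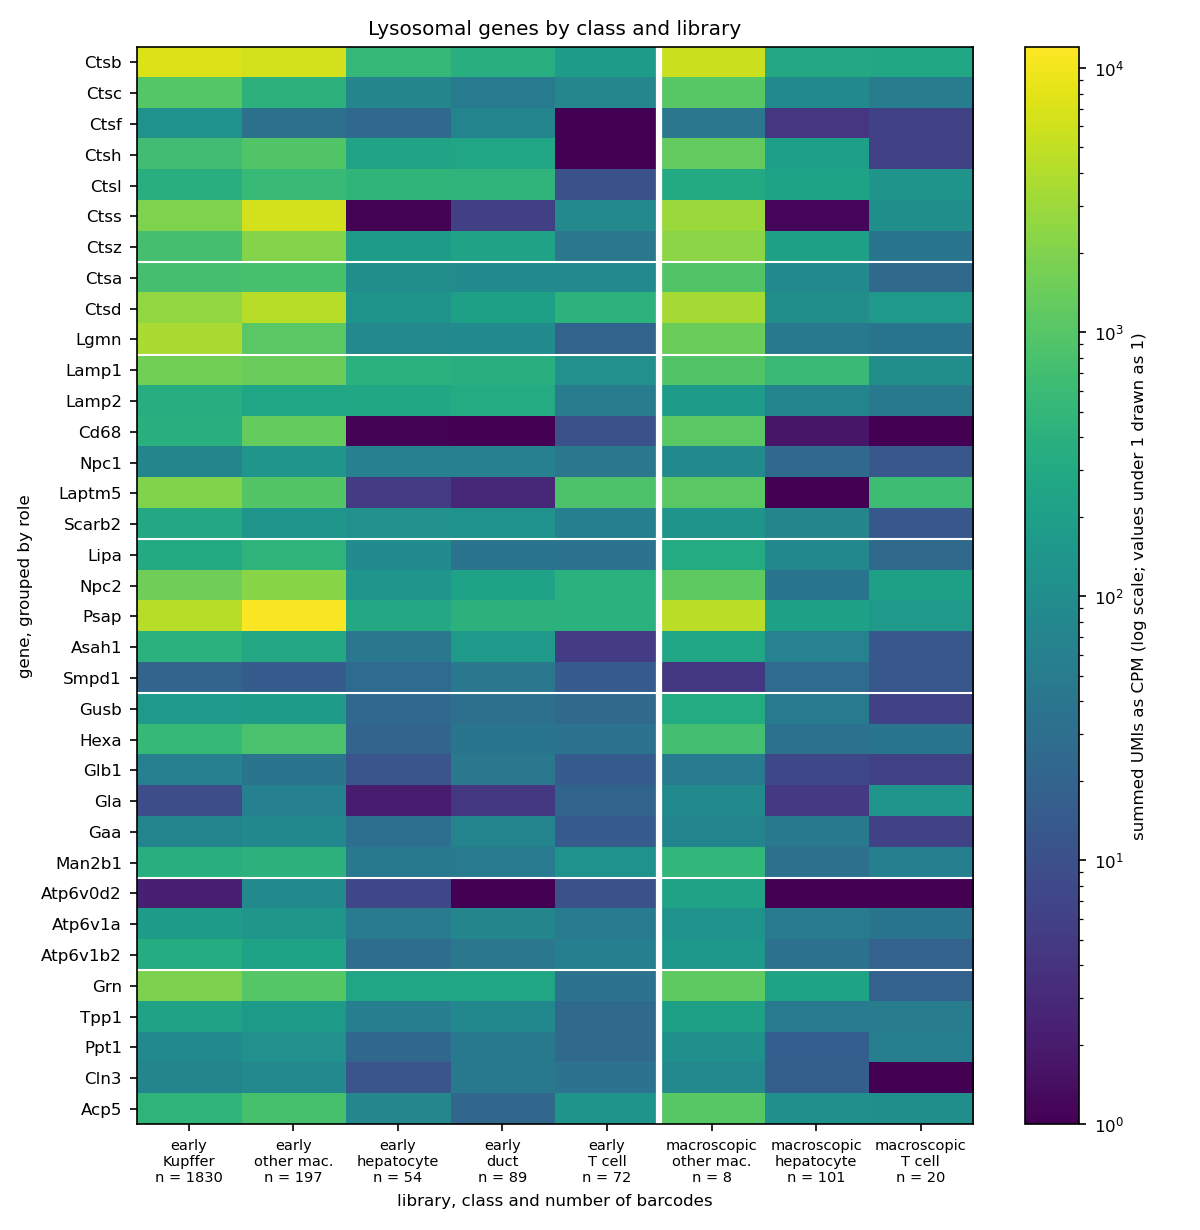
Heat map of the summed level of each of the 35 genes (rows, grouped by role) in each class and library (columns, with the number of barcodes), as CPM on a log colour scale where values under 1 are drawn as 1. The 3 macrophage columns hold the brightest cells, such as Psap at 11532 CPM in other macrophages, while Ctss, Cd68 and Laptm5 are dark in hepatocytes and duct cells.

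The cysteine cathepsins are proteases that cut proteins in the lysosome, and 2 of them led the group. Cathepsin B (Ctsb) stood at 7231 CPM (7164 to 7299) in early Kupffer cells and 6342 CPM (6219 to 6467) in other macrophages. Its level was 514 CPM (469 to 562) in early hepatocytes, 364 CPM (332 to 397) in duct cells and 170 CPM (117 to 239) in T cells. In the macroscopic library it was 5629 CPM (5319 to 5953) in other macrophages, 294 CPM (279 to 309) in hepatocytes and 276 CPM (199 to 371) in T cells. Ctsb was thus above 100 CPM in every class, and the macrophage intervals overlapped with no other class. Of the 43 Ctsb UMIs in macroscopic T cells, 23 came from 1 of 20 barcodes, and without that barcode the level was 148 CPM.

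Cathepsin S (Ctss), which trims the invariant chain in antigen-presenting cells, was high in macrophages and nearly absent from hepatocytes. It stood at 6368 CPM (6245 to 6492) in early other macrophages, 1935 CPM (1901 to 1971) in Kupffer cells and 2906 CPM (2685 to 3142) in macroscopic other macrophages. Hepatocytes had 1 UMI of the early lesions (1.07 CPM, 0.0271 to 5.97) and 6 of the macroscopic lesions (1.16 CPM, 0.426 to 2.53). Duct cells had 6.01 CPM (2.59 to 11.8), while T cells had 82.7 CPM (47.2 to 134) and 109 CPM (63.5 to 174). Cathepsin L (Ctsl), a general lysosomal protease, had similar levels in macrophages, hepatocytes and duct cells. Its early levels were 583 CPM (547 to 622) in other macrophages, 467 (424 to 513) in hepatocytes, 447 (412 to 484) in duct cells, 364 (349 to 379) in Kupffer cells and 10.3 (1.25 to 37.3) in T cells. Hepatocytes and duct cells are neighbours in this order whose intervals overlap. Of the 935 Ctsl UMIs in early other macrophages, 130 came from 1 of 197 barcodes, and without that barcode the level was 509 CPM. Cathepsin H (Ctsh) had 0 UMIs in early T cells, which allows up to 15.5 CPM, and 240 CPM (210 to 274) in early hepatocytes.

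Among the aspartic and serine cathepsins and legumain, cathepsin D (Ctsd), the main aspartic protease of the lysosome, stood at 4378 CPM (4276 to 4482) in early other macrophages and 2639 CPM (2598 to 2680) in Kupffer cells. In T cells it reached 429 CPM (342 to 532), above the 210 CPM (186 to 236) of duct cells and the 131 CPM (109 to 156) of hepatocytes. The Ctsd model overlaps Gm49369 on the same strand, so reads between them are uncertain. Legumain (Lgmn), the endopeptidase that cuts after asparagine and activates other cathepsins, stood at 3617 CPM (3569 to 3665) in Kupffer cells and 1077 CPM (1027 to 1129) in early other macrophages. Its early levels elsewhere were 84.6 CPM (67.0 to 105) in hepatocytes, 93.9 (78.2 to 112) in duct cells and 20.7 (5.63 to 52.9) in T cells. The orders of these proteases differ: Ctsd was highest in other macrophages, and Lgmn in Kupffer cells.

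Among the membrane proteins, Lamp1 and Lamp2 had UMIs in every class, whereas Laptm5 and Cd68 were nearly absent from hepatocytes and duct cells. Lamp1, a major glycoprotein of the lysosomal membrane, stood at 1608 CPM (1577 to 1641) in Kupffer cells and 1403 CPM (1345 to 1462) in early other macrophages. Lamp1 was 409 CPM (369 to 452) in early and 560 CPM (539 to 580) in macroscopic hepatocytes, and 358 CPM (326 to 391) in duct cells. T cells had 114 CPM (71.2 to 172) of Lamp1 in the early and 103 CPM (58.6 to 166) in the macroscopic library, so it was present in every class but highest in macrophages. Lamp2, its partner protein and a receptor of chaperone-mediated autophagy, ran from 261 CPM (236 to 287) to 351 CPM (336 to 366) over the 4 early classes other than T cells. Hepatocytes, at 271 CPM (239 to 307), overlapped with other macrophages in this gene. By contrast Laptm5, a lysosomal protein of blood-derived cells, had 5 and 3 UMIs in the early and macroscopic hepatocytes. In T cells Laptm5 stood at 878 CPM (751 to 1021) in the early and 647 CPM (527 to 786) in the macroscopic library. Endothelial markers summed to 481 CPM in the macroscopic T cell class, against 72.3 CPM in the early one. Their part in the T cell levels given here was not tested. Cd68, the macrophage form of a LAMP-like protein, had 1285 CPM (1230 to 1341) in early other macrophages, 385 CPM (369 to 401) in Kupffer cells, and 0 UMIs in duct cells and macroscopic T cells.

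The lipid proteins were led by Psap and Npc2. Prosaposin (Psap) is the precursor of the saposins that present sphingolipids to their hydrolases, and Npc2 carries cholesterol inside the lysosome. Psap had the highest level of the 35 genes in any class, 11532 CPM (11367 to 11700) in early other macrophages, against 4447 CPM (4394 to 4500) in Kupffer cells and 4612 CPM (4331 to 4906) in the macroscopic other macrophages. In early hepatocytes, duct cells and T cells Psap stood at 286 CPM (253 to 323), 416 (382 to 452) and 403 (319 to 503). Npc2 showed 2295 CPM (2222 to 2371) in other macrophages and 1587 CPM (1555 to 1619) in Kupffer cells of the early library. Acid sphingomyelinase (Smpd1), which splits sphingomyelin, was the exception to the macrophage pattern. It had 42.8 CPM (32.4 to 55.5) in duct cells, 26.8 (17.3 to 39.5) in early hepatocytes, 21.3 (17.8 to 25.3) in Kupffer cells and 15.6 (10.1 to 23) in early other macrophages. Only the duct interval stands apart from the macrophage intervals.

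Among glycosidases, which strip sugars from lipids and proteins, Hexa and Man2b1 had the most UMIs. Hexa, the alpha chain of beta-hexosaminidase, stood at 811 CPM (768 to 856) in other macrophages, 544 CPM (526 to 563) in Kupffer cells and 21.4 CPM (13.1 to 33.1) in hepatocytes of the early library. Man2b1, an alpha-mannosidase, had 423 CPM (392 to 456) in other macrophages, 372 CPM (357 to 388) in Kupffer cells and 43.9 CPM (31.5 to 59.6) in hepatocytes. Gla, the alpha-galactosidase A gene, was low in most classes, with 61.8 CPM (50.2 to 75.2) in early other macrophages and 9.06 CPM (6.83 to 11.8) in Kupffer cells. Its 135 CPM in macroscopic T cells rested on 21 UMIs, of which 18 came from 1 of 20 barcodes. Without that barcode Gla stood at 20.5 CPM there, below the 87.1 CPM (52.4 to 136) of the other macrophages.

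The proton pump subunits showed a split inside the group. Atp6v1a and Atp6v1b2, parts of the catalytic ring, were in every class, at 178 CPM (167 to 188) and 333 CPM (319 to 348) in Kupffer cells and 48.2 CPM (35.2 to 64.5) and 28.9 CPM (19.1 to 42.1) in early hepatocytes. Atp6v0d2, a subunit isoform known from osteoclasts and some macrophages, had 14 UMIs in 1830 Kupffer barcodes, or 2.31 CPM (1.26 to 3.87). It had 136 UMIs in 197 early other macrophages, or 84.9 CPM (71.2 to 100). In the macroscopic other macrophages Atp6v0d2 stood at 220 CPM (162 to 292) in 4 of 8 barcodes, and at 141 CPM without the barcode that held 22 of its 48 UMIs.

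Of the other soluble genes, progranulin (Grn), a precursor processed in the lysosome, stood at 1906 CPM (1872 to 1941) in Kupffer cells and 998 CPM (949 to 1048) in early other macrophages. Acp5, the tartrate-resistant acid phosphatase, had 767 CPM (725 to 811) in other macrophages, 457 (440 to 474) in Kupffer cells and 129 (83.6 to 191) in T cells. Tpp1, Ppt1 and Cln3, genes of the neuronal ceroid lipofuscinoses, ran from 11.8 to 221 CPM over the early classes. Of genes not yet described, Ctsz stood at 2099 CPM (2029 to 2171) in early other macrophages and 748 (727 to 771) in Kupffer cells, and Ctsc at 422 (391 to 455) and 1010 (985 to 1036). Lipa, the acid lipase that frees cholesterol, stood at 447 CPM in early other macrophages and 93.2 in hepatocytes, and Glb1, a beta-galactosidase, at 60.7 CPM in Kupffer cells and 11.8 in hepatocytes. Of the 35 genes, 33 reached 10 CPM in early Kupffer cells, 35 in other macrophages, 30 in hepatocytes, 30 in duct cells and 32 in T cells, and the median gene stood at 372, 423, 55.7, 69.1 and 36.2 CPM. None of the 5 soluble or disease genes was highest outside a macrophage class in either library.

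Summed over the 35 genes, macrophages devoted far more of their RNA to them than any other class. The median share of UMIs per barcode was 4.65% in early other macrophages (interval of the median over barcodes 4.32 to 4.88) and 3.62% in Kupffer cells (3.56 to 3.67). It was 0.378% in hepatocytes, 0.441% in duct cells and 0.354% in T cells of the early library. In the macroscopic library it was 3.59% over the 8 other macrophages (lowest 1.98%, highest 3.88%), 0.279% in hepatocytes and 0.224% in T cells. Without Ctsb, the gene with the most UMIs, the early medians were 4.0% in other macrophages, 2.86% in Kupffer cells and 0.331% in hepatocytes. With every barcode thinned at random to 1000 UMIs, a median of 14 of the 35 genes was detected in each macrophage class of the early library, against 3 in hepatocytes, 4 in duct cells and 3 in T cells.

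**Figure D2:**
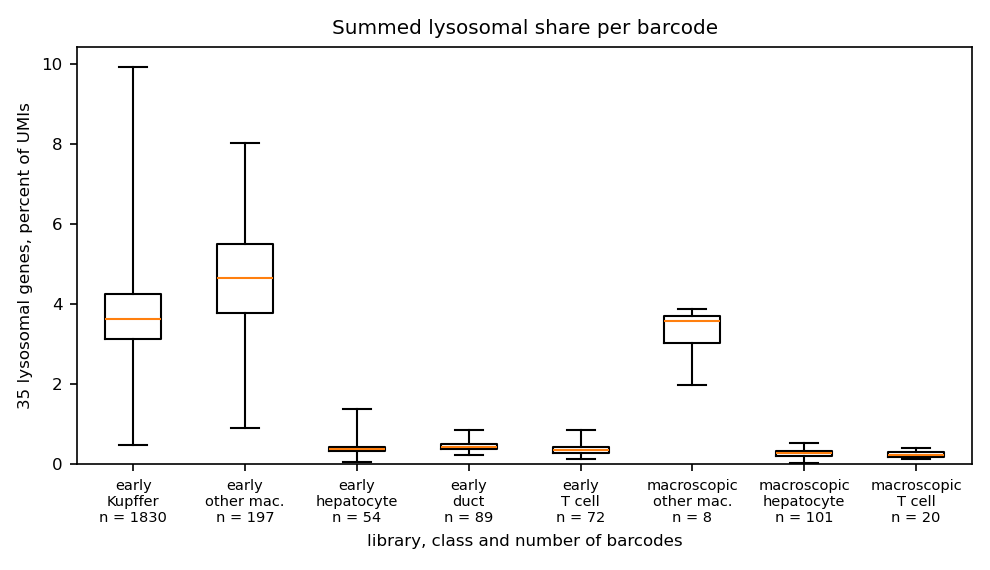
Box plot of the percent of each barcode's UMIs that came from the 35 genes (vertical axis), by library and class with the number of barcodes. Boxes span the quartiles around the median line and whiskers reach the lowest and highest barcode; the medians of macrophage classes lie between 3.59% and 4.65% and all others below 0.5%.

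The make-up of this sum differed by class. In Kupffer cells Ctsb gave 20.6% of the 212969 UMIs of the 35 genes, Psap 12.7% and Lgmn 10.3%. In early other macrophages Psap gave 25.1% of 73670, Ctss 13.9% and Ctsb 13.8%. Hepatocytes drew on Ctsb (13.2%), Ctsl (12.0%) and Lamp1 (10.5%) of 3626 early UMIs, and on Lamp1 (18%) and Ctsb (9.46%) of 16043 macroscopic ones. T cells drew first on Laptm5, with 24.9% of 684 UMIs and 24.8% of 407.

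Kupffer cells and other macrophages were compared within the early library, the resident macrophages against the class chosen by Gpnmb and Mmp12. The median depth was 2463 UMIs in Kupffer barcodes and 7967 in other macrophages, so all barcodes were thinned to 1000 UMIs before summing. A gene was measured with at least 10 CPM in 1 sum and 20 UMIs over both, and called at 2-fold. Of 34 measured lysosomal genes, 5 were at least 2-fold higher in Kupffer cells, against a background of 27.3% of 7869 genes, and 5 were lower by as much, against 8.15%. Their median log2 ratio was 0.01 and that of all measured genes 0.32, so relative to all genes they stood at -0.31. With median-of-ratios scaling 2 were higher (background 18.1%) and 8 lower (background 13.9%).

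Lgmn led the Kupffer side. It stood at 4495 CPM in Kupffer cells and 1076 CPM in other macrophages after thinning, a 4.18-fold ratio (3.64 to 4.81). Cathepsin F (Ctsf), a further cysteine protease, was 3.15-fold higher (1.57 to 7.38) on 8 UMIs in other macrophages. Cathepsin C (Ctsc), the dipeptidyl peptidase that activates granule proteases, was 2.36-fold higher (1.91 to 2.96), at 1044 and 442 CPM. Laptm5 was 2.11-fold (1.84 to 2.43) and Scarb2, the receptor that brings glucocerebrosidase to lysosomes, 2.03-fold higher (1.40 to 3.06). Grn, at 1.99-fold (1.73 to 2.3), lay just under the threshold, and Tpp1 was 1.65-fold higher (1.11 to 2.55), with Glb1 next at 1.56-fold. The intervals of Laptm5, Scarb2, Ctsc and Ctsf reach below 2-fold, and that of Lgmn does not.

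On the side of other macrophages, Gla was 9.29-fold higher there (4.65 to 18.5), at 96.4 against 10.4 CPM. Cd68 was 4.25-fold higher (3.65 to 4.94), at 1284 against 302 CPM. Ctss was 3.42-fold higher (3.20 to 3.65), at 6350 against 1858 CPM. Cathepsin Z (Ctsz), a carboxypeptidase, was 2.83-fold higher (2.52 to 3.17), and Psap 2.42-fold (2.31 to 2.54), at 11919 against 4918 CPM. The lower bound of each of these 5 intervals is above 2-fold. Atp6v0d2 was below the minimum of the thinned comparison, with 13 UMIs against 2. The next in order, Acp5, was 1.83-fold (1.53 to 2.18) and Npc1, the membrane partner of Npc2, 1.80-fold higher in other macrophages (1.12 to 2.78).

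**Figure D3:**
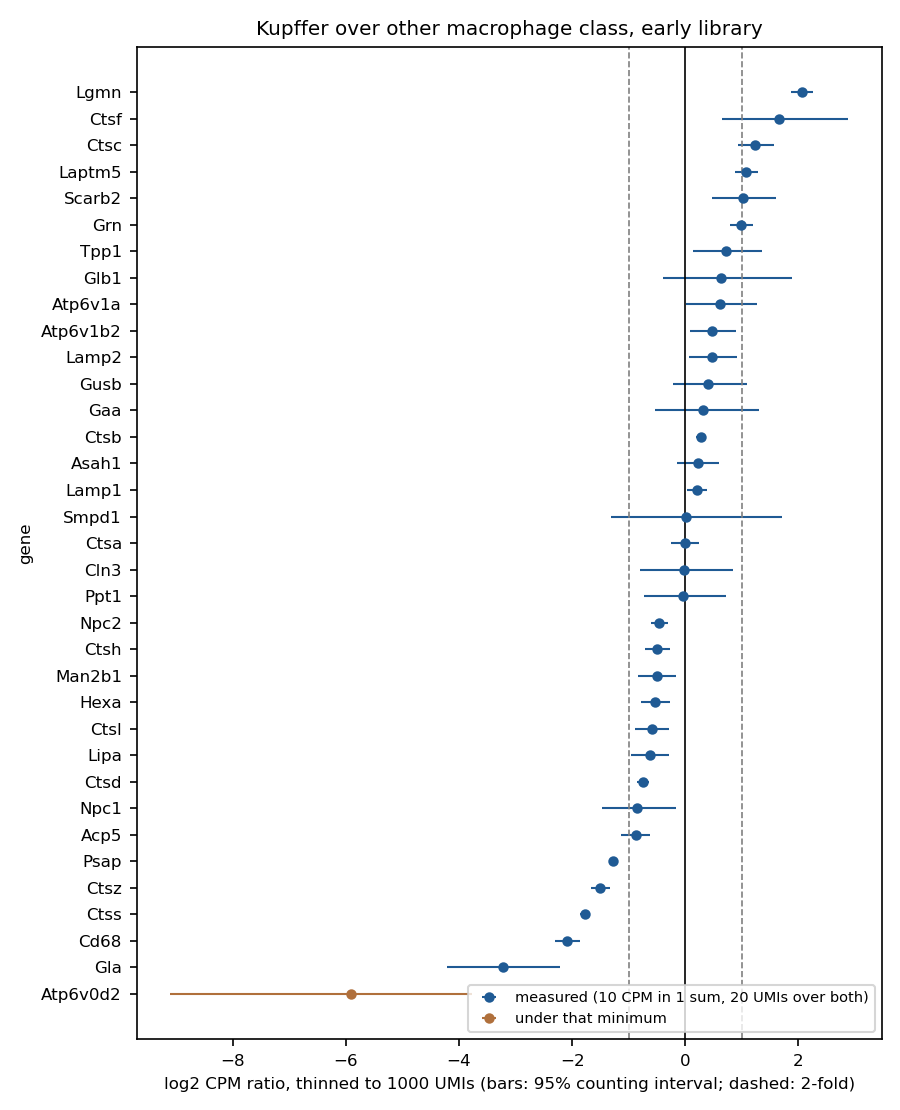
Log2 ratio of Kupffer over other macrophage CPM after thinning (horizontal axis) for each of the 35 genes (vertical axis, in order), with 95% counting intervals, a solid line at equality and dashed lines at 2-fold. Lgmn lies farthest to the right at 2.06 and Gla farthest to the left among measured genes at -3.22; Atp6v0d2 was below the measuring minimum.

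Of the 10 cathepsin and legumain genes 3 were called on the Kupffer side, near the 27.3% of all genes, and 2 on the other (background 8.15%). Many general components did not differ by 2-fold. Ctsa, the protective protein of galactosidase, had a ratio of 0.996 (0.845 to 1.18), Lamp1 1.15 (1.02 to 1.31), Asah1, the acid ceramidase, 1.17 (0.909 to 1.52) and Ctsb 1.22 (1.15 to 1.29). The ratios of Atp6v1b2 and Lamp2 were 1.40 (1.06 to 1.87) and 1.40 (1.05 to 1.89). Barcodes of both macrophage gates, left out above, lay between the classes in Lgmn (1938 CPM), Ctss (3399 CPM), Cd68 (1107 CPM) and Psap (8131 CPM), but above both in Atp6v0d2 (111 CPM). In a window of equal depth (5000 to 10000 UMIs, 272 against 114 barcodes), 4 genes were higher (background 24.9%) and 4 lower (background 7.63%). The log2 ratio of Lgmn was 1.40 there. Lgmn, Ctsf, Gla, Cd68, Ctss, Ctsz and Psap kept at least 2-fold in their direction in all 13 alternatives, whereas Scarb2 and Laptm5 did so in 9 and Ctsc in 11.

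Some markers of other cells also differed in this comparison. All 3 measured of 5 endothelial markers were at least 2-fold higher in Kupffer cells: Cdh5 at 508 against 5.08 CPM, Stab2 at 152 against 10.2, and Pecam1 at 67.2 against 0 CPM. The summed level of the endothelial list, unthinned, was 661 CPM in Kupffer cells and 21.8 CPM in other macrophages, of which Cdh5 gave 458 and 6.86 CPM. The list members that were not measured were low in both classes. Clec4g stood at 3.96 CPM in Kupffer cells and 3.74 CPM in other macrophages, and Plvap at 4.94 and 0 CPM. Of 7 measured hepatocyte markers 6 were at least 2-fold higher in Kupffer cells, with a summed level of 1150 against 485 CPM. The duct list summed to 427 CPM in other macrophages and 45 in Kupffer cells, but Spp1 alone gave 424 and 41.0 CPM of these. Spp1, the 1 measured duct marker, is also on the list of other macrophages and was 8.22-fold higher there (6.14 to 11). Krt19, a duct gate gene, had no UMIs in Kupffer cells, a class that leaves out barcodes of the duct gate. The part of these markers in the lysosomal differences was not tested.

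Macrophages and hepatocytes were then compared within each library. Among early barcodes 31 of 35 were at least 2-fold higher in macrophages (Kupffer and other macrophages summed), against 24.6% of the 9567 genes with enough UMIs, and 0 were lower by as much, against 28.4%. Their median log2 ratio was 2.71, and -0.15 over all genes. In the macroscopic library, with 9 macrophage barcodes, 30 of 35 were higher (background 19.6%) and 1 lower (background 29%), with a median of 2.76 against -0.25. By role, the early count was 6 of 7 cysteine cathepsins, 3 of 3 other cathepsins and legumain, 4 of 6 membrane proteins, 4 of 5 lipid proteins, 6 of 6 glycosidases, 3 of 3 pump subunits and 5 of 5 others. The macroscopic count differed by 1 glycosidase fewer. The macrophage sums were not alike, with 1830 Kupffer and 197 other macrophage barcodes early and 1 and 8 macroscopic, so paired ratios below rest on different macrophages. With early other macrophages alone the log2 ratio over hepatocytes was 3.67 for Lgmn and 5.33 for Psap. With both classes summed it was 5.19 and 4.37.

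The highest ratios belonged to Ctss, Cd68 and Laptm5 in both libraries. Ctss was 2671-fold higher (479 to 105499) on 1 early hepatocyte UMI and 2313-fold (1057 to 6325) on 6 macroscopic ones. Cd68 was 535-fold (95.9 to 21124) and 599-fold higher (311 to 1324). Laptm5 was 341-fold (146 to 1050) and 1856-fold higher (629 to 9054). These 3 genes were near absent from hepatocyte barcodes, at 1.07 to 5.36 CPM in the early library.

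A broad middle followed. Lgmn was 36.5-fold (29.2 to 46.1) and 35.1-fold higher (29.7 to 41.4) in the early and macroscopic libraries. Hexa was 28.0-fold (18.1 to 45.9) and 19.2-fold (15.4 to 23.9), and Ctsd 23-fold (19.2 to 27.7) and 30.4-fold (27.2 to 34.0). Psap was 20.7-fold (18.4 to 23.5) and 19.7-fold (18.2 to 21.5), and Ctsb 13.7-fold (12.5 to 15.0) and 19.3-fold (17.9 to 20.7). These genes are the main proteases and sphingolipid factors of the group, and their early hepatocyte levels ran from 21.4 CPM (Hexa) to 514 CPM (Ctsb). Npc2 was 29.5-fold higher in macroscopic macrophages, at 1121 against 38.0 CPM, and stood at 1735 against 134 CPM in the early library.

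At the other end, 4 genes were within 2-fold in the early library. Npc1 had a ratio of 1.48 (1.12 to 1.99), Lamp2 1.23 (1.08 to 1.40), Ctsl 0.877 (0.793 to 0.971) and Smpd1 0.750 (0.489 to 1.19). Scarb2 at 2.23, Gaa at 2.33 and Ctsh at 3.06 lay above 2-fold. In the macroscopic library Gaa, the acid alpha-glucosidase that degrades glycogen, was at 1.36 (0.764 to 2.25), Ctsl at 1.78 (1.44 to 2.17), Lamp1 at 1.80 (1.58 to 2.05) and Scarb2 at 1.93 (1.33 to 2.73). Atp6v1a at 2.24, Lamp2 at 2.49 and Asah1 at 3.74 came next there. Smpd1 was 7.04-fold lower in macroscopic macrophages (1.24 to 280) on 1 macrophage UMI. Atp6v0d2 had 2.61-fold (1.23 to 6.6) in the early and 477-fold (125 to 4054) in the macroscopic library. The early value mixes Kupffer cells at 2.31 CPM with other macrophages at 84.9 CPM. With the Kupffer class alone the log2 ratio was -1.70, with both sums under the minimum of 10 CPM.

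**Figure D4:**
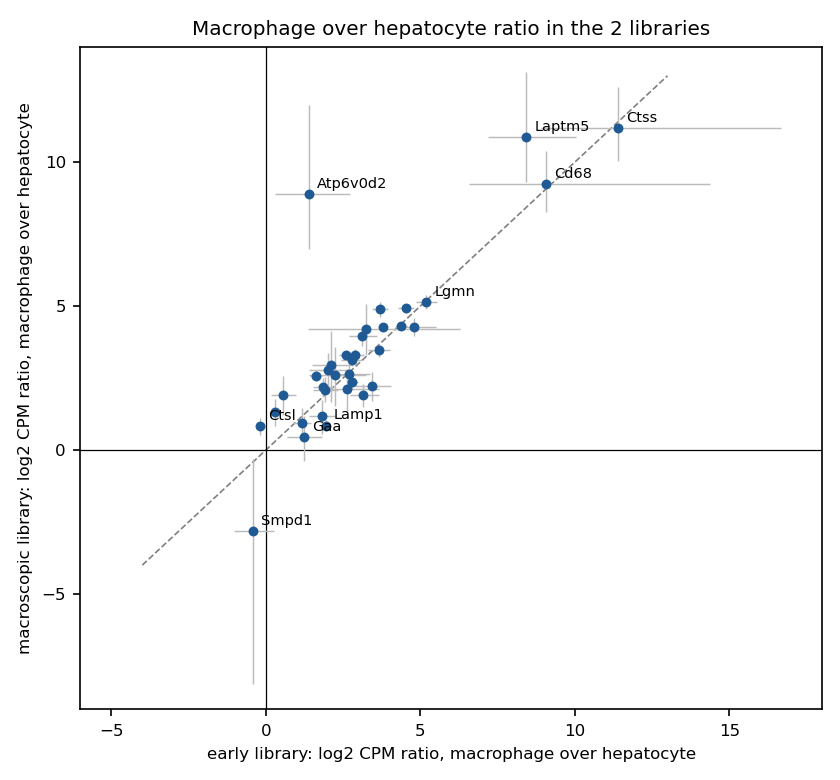
Log2 CPM ratio of macrophages over hepatocytes in the early library (horizontal axis) against the same in the macroscopic library (vertical axis), 1 point per gene with 95% counting intervals and a dashed line of equal ratios. Ctss, Cd68 and Laptm5 lie far to the upper right, Atp6v0d2 stands above the line at 1.38 and 8.90, and Smpd1 is below 0 on both axes. Macrophages were mostly Kupffer barcodes in the early library and mostly other macrophages in the macroscopic one.

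Free RNA from burst macrophages can put macrophage molecules into other droplets, so hepatocyte levels were set beside 5 macrophage genes that no gate used (C1qa, C1qb, C1qc, Csf1r and Adgre1). In hepatocytes these summed to 0.164% of their macrophage level at the early stage and 0.0480% at the macroscopic stage. The lysosomal genes had a median of 15.3% and 14.7% of their macrophage level there. At the ratio of the macrophage genes, early hepatocytes would hold 10.8 UMIs of Ctsb, against 480 counted, and 2.39 of Lamp1, against 382. Ctss, Cd68 and Laptm5 lay under 10 times that ratio in both libraries, and Atp6v0d2 also in the macroscopic library. At that ratio early hepatocytes would hold 4.37 UMIs of Ctss, and 1 was counted. The ratio itself varied between the 5 genes, from 0% for Adgre1 to 0.416% for Csf1r in early hepatocytes. In T cells the macrophage genes summed to 0.355% and 0.0859% of their macrophage level, and the lysosomal median was 14.3% and 9.24%. In duct cells the values were 0.580% and 20.1%. Csf1r gave 75 of the macrophage gene UMIs in duct cells, at 4.38% of its macrophage level, and the 3 C1q genes without it stood at 0.154%.

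Between stages, the lysosomal genes of hepatocytes were compared in 101 macroscopic and 54 early barcodes with medians of 23080 and 17040.5 UMIs. Among the 30 with enough UMIs, 0 were called higher in the macroscopic library (background 9.87%) and 5 were called lower (background 16.8%). The median log2 ratio was -0.20, and also -0.20 over all 8803 measured genes. The count of lower genes is near the background and is not a result about the lysosomal genes as a group. With median-of-ratios scaling 1 was higher (background 13.6%) and 4 lower (background 11.1%).

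Single genes still differed in level between these 2 libraries. Lamp2 was 3.98-fold lower (3.37 to 4.69) in macroscopic hepatocytes, at 68.2 against 271 CPM, while Lamp1 was 1.37-fold higher (1.23 to 1.53), at 560 against 409 CPM. These membrane partners thus differed in opposite directions, though Lamp1 by less than 2-fold. Npc2 was 3.53-fold (2.80 to 4.44) and Npc1 2.41-fold lower (1.73 to 3.34), but Npc1 was at least 2-fold lower in only 5 of 7 alternatives and not among barcodes with at least 0.05% Malat1, at 31.7 against 59.6 CPM. Ctsf was 5.53-fold lower (2.97 to 10.3). Ctsl was 2.03-fold lower (1.82 to 2.27), and at least 2-fold lower in 6 of 8 alternatives. Lgmn was 1.92-fold (1.46 to 2.49) and Ctsb 1.75-fold lower (1.58 to 1.94). Gusb, the beta-glucuronidase, was 1.93-fold higher (1.25 to 3.10) and Acp5 1.48-fold higher (1.16 to 1.93). Thinned to 1000 UMIs, Gusb had a log2 ratio of -0.49, on too few UMIs to give a direction. A count of 0 is set to 3 UMIs there, so this may be a bound. Smaller ratios above 1 were those of Hexa (1.54), Asah1 (1.51), Gaa (1.46) and Cln3 (1.45). Ctss, Cd68, Laptm5, Gla and Atp6v0d2 were below the minimum, with at most 25 UMIs in a sum. Of the listed markers of other macrophages, 3 of 9 were measured and 2 were called higher in macroscopic hepatocytes, Fabp5 and Cx3cr1, with Gpnmb at 0 in both stages. The summed level of that list was 2550 against 2045 CPM, of which Spp1 alone gave 2210 and 1963. Of 8 duct markers Epcam was called higher, with Krt19 and Krt7 at 0 in both. Barcodes that also passed the duct gate (Krt19 and Krt7) or the other macrophage gate (Gpnmb and Mmp12) had been left out. The values of 0 for these gate genes are thus in part set by the gating. The summed levels of the duct list, 2588 and 2172 CPM, include the same Spp1 molecules, since Spp1 is on both lists. Their part in the lysosomal differences was not tested.

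Macroscopic hepatocytes with at least and with under 0.05% of UMIs from Malat1 gave similar levels of some of these genes. Lamp1 stood at 576 CPM (553 to 601) in the 44 barcodes at or above that limit and 510 CPM (472 to 550) in the 57 under it. Npc2 stood at 38.7 CPM (32.8 to 45.5) and 35.7 CPM (26.3 to 47.5). Others differed between the 2 kinds of barcode. Npc1 stood at 31.7 CPM (26.3 to 37.9) at or above the limit and 3.04 CPM (0.829 to 7.79) under it, Grn at 275 CPM (259 to 292) and 106 CPM (89.6 to 126), and Psap at 251 CPM (236 to 268) and 113 CPM (95.9 to 133). Lamp2 was at 74.8 CPM (66.4 to 84.0) and 48.7 CPM (37.5 to 62.2), both below the 273 CPM (240 to 309) of the 51 early barcodes at or above the limit. Whether barcodes under the limit are whole cells was not tested.

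**Figure D5:**
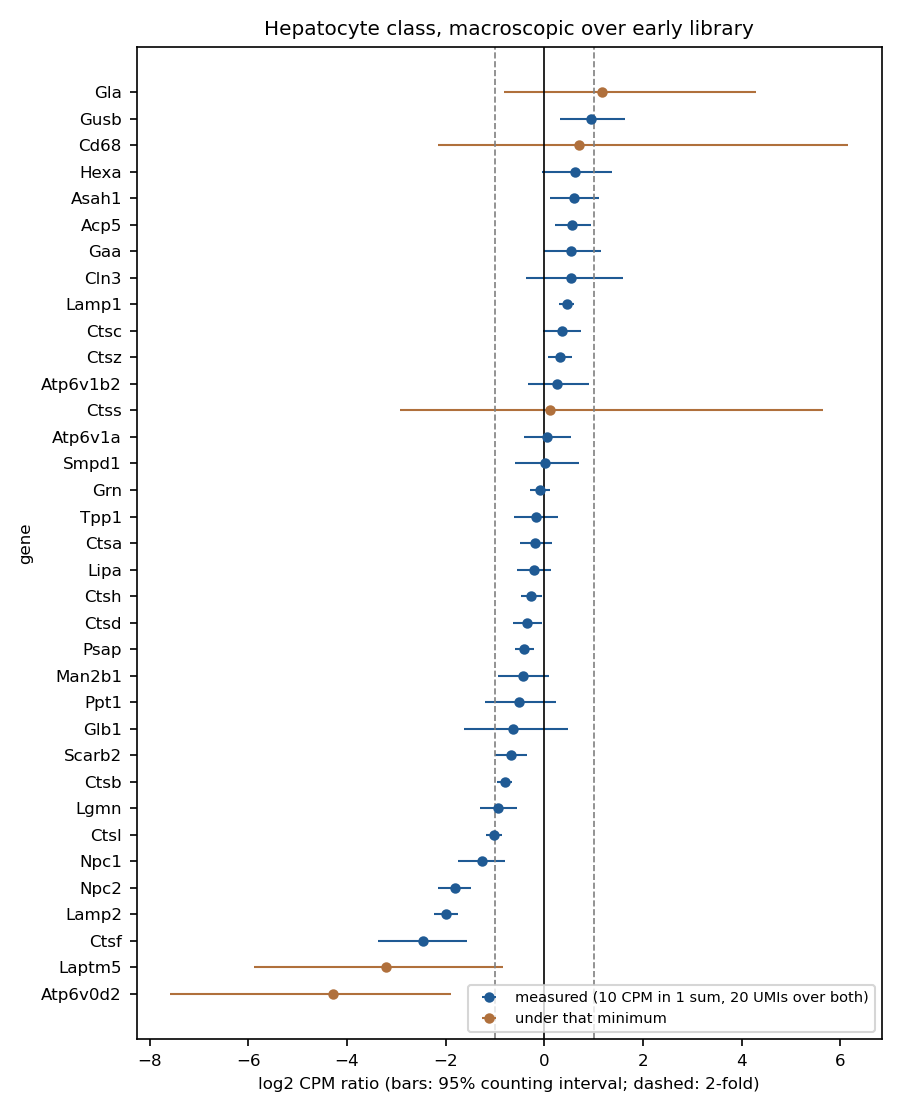
Log2 CPM ratio of macroscopic over early hepatocytes (horizontal axis) for each of the 35 genes (vertical axis, in order), with 95% counting intervals, a solid line at equality and dashed lines at 2-fold. The 5 measured genes left of the lower dashed line are Ctsf, Lamp2, Npc2, Npc1 and Ctsl, and no measured gene lies right of the upper one.

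Other lysosomal genes, from 8 lists outside the 35, gave the wider setting, several of them short. In early macrophages against hepatocytes the share of all genes was 24.6% higher and 28.4% lower. Of these lists, 16 of 26 measured other hydrolases were at least 2-fold higher and 1 (Galns) lower, with a median log2 ratio of 1.96. Of 12 other pump subunits 9 were higher and 0 lower (median 1.55), for example Atp6v1g1 at 4.05-fold (3.43 to 4.82). Of 11 other membrane proteins 6 were higher (median 1.31). All 4 transcription factors of the TFEB family were higher (median 3.06): Tfeb 2.39-fold (1.43 to 4.33), Tfe3 6.88-fold (4.0 to 13), and Mitf and Tfec, at 0 UMIs in hepatocytes, at least 10.1-fold and 22.1-fold.

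Of the autophagy genes, 0 of 8 were at least 2-fold apart in either direction in either library (medians 0.44 and 0.26). Over all genes 24.6% were higher and 28.4% lower in early macrophages, and 19.6% and 29% in macroscopic ones. The next counts are those of the early library. Of 8 measured genes that dock mTORC1 at the lysosome 4 were higher and 1 lower (median 0.72), and of 5 sorting genes 2 were higher (median 0.28), such as the mannose 6-phosphate receptor M6pr at 3.10-fold (2.40 to 4.09). The macroscopic medians were 1.41 for other hydrolases, 1.59 for pump subunits, 1.23 for membrane proteins, 0.47 for docking genes and 0.60 for sorting genes. The interval of the median lay above the median of all genes (-0.15 and -0.25) for other hydrolases, pump subunits and membrane proteins in both libraries. For the docking, sorting and autophagy lists it held that median. These lists had at most 9 measured genes, and save for the macroscopic docking list the interval was their full range. It therefore cannot set these short lists apart from the longer ones.

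Between Kupffer cells and other macrophages, no other pump subunit (0 of 12), autophagy gene (0 of 8) or docking gene (0 of 8) differed by 2-fold. Of the other membrane proteins 3 of 10 were higher, near the 27.3% of all genes, and 2 were lower (background 8.15%). Cd63, a tetraspanin of late endosomes, was 65.6-fold higher in other macrophages (50.4 to 86.6), at 2294 against 35 CPM. Cd164, a sialomucin also found on lysosomes, was 9.98-fold higher in Kupffer cells (5.23 to 21.9). Cstb, an inhibitor of cysteine cathepsins, was 4.41-fold higher (3.8 to 5.11) in other macrophages. Of the 4 transcription factors Tfe3 was 6.65-fold (2.56 to 24.6) and Tfec 3.60-fold higher (1.51 to 11.2) in Kupffer cells, on 4 and 5 UMIs in the thinned other macrophages. Unthinned, Tfe3 had 108 CPM (100 to 117) and 49.3 CPM (39.0 to 61.4), and Tfeb 33.6 CPM (29.2 to 38.6) and 56.8 CPM (45.7 to 69.7).

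In hepatocytes of the macroscopic against the early library, 4 of 21 other hydrolases were at least 2-fold higher (background 9.87%) and 5 lower (background 16.8%). Neu1, the lysosomal sialidase, was 3.56-fold (2.37 to 5.62) and Gm2a, the GM2 activator, 2.48-fold higher (1.84 to 3.41), while the fucosidase Fuca1 was 2.43-fold lower (1.79 to 3.27). Rragd, a GTPase that recruits mTORC1 to lysosomes, was 6.46-fold higher (3.24 to 15.1), at 55.4 against 8.57 CPM. Cstb was 3.12-fold higher (2.83 to 3.45), at 1425 against 456 CPM. Atp6ap1, an accessory subunit of the pump, was 4.13-fold lower (2.84 to 5.98), and Atp6ap2, a further accessory subunit, was the only other one of 12 measured pump subunits at least 2-fold lower, a share near the background of 16.8%, with 0 higher.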

How the data were processed

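Droplet single-cell RNA was measured in 2 libraries of YFP-sorted liver cells. Per the file headers, the authors deposited raw UMI counts written by Cell Ranger 3.0.2; the submitters' processing notes also name mm10 and Seurat 2.3.0, with no role. The gene annotation behind the counts and any barcode filter are not given in the sources used here, nor was a doublet caller run; barcodes passing more than 1 gate were left out. Counts were summed per class as CPM, with exact Poisson intervals (95%) for levels and exact conditional binomial intervals for ratios. Intervals of medians were taken from ranked values, and were the full range for the shortest lists. A count of 0 allows 3 UMIs. Kupffer and other macrophages were thinned to 1000 UMIs per barcode. The ratio step was tested on simulated data. Python 3.11.15, numpy 2.4.6, scipy 1.17.1 and pandas 2.3.3 were used. All 35 genes entered every comparison. Those named are chiefly the genes with the highest and lowest ratios or the most UMIs. The gene list, the other lists and the gates were chosen with earlier results of these data known. Kept barcodes held 12202299 early and 7260252 macroscopic UMIs.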

Additional observations from a re-analysis of the deposited data

Results flagged for a closer look

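Ctsl differed in direction between the libraries. Its CPM in macrophages over hepatocytes was 0.877 in the early and 1.78 in the macroscopic library, and the difference was not tested. With the other macrophage class alone the log2 ratios were 0.32 and 0.42, and with early Kupffer cells alone -0.36. The other macrophage levels leaned on single barcodes. Without the barcode with the most Ctsl UMIs, they fell from 583 to 509 CPM in the early and from 307 to 248 CPM in the macroscopic library. Hepatocytes stood at 467 and 230 CPM. Of the 106 Ctsl UMIs of macroscopic macrophages, 39 came from the single Kupffer barcode.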

How the results depend on the processing

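Of 809 values recomputed under alternatives, those that answer a comparison stayed close in 171 cases and moved in 13, and values of single genes stayed close in 539, moved in 84 and reversed in 2. Between Kupffer cells and other macrophages, 3 genes were at least 2-fold higher with at least 2000 UMIs per barcode (background 27.0%). Median-of-ratios scaling gave 2 higher (background 18.1%) and 8 lower (background 13.9%). Counting barcodes of both gates as other macrophages gave 2 higher (background 21.8%). Thinned to 1000 UMIs, early macrophages against hepatocytes had 27 genes higher (background 15.9%) and 1 lower (background 34.7%). Macroscopic ones had 8 higher (background 11.8%) and 0 lower (background 23.5%) of 10 measured, where fewer UMIs left fewer genes measured. Atp6v0d2 reversed in the early comparison, to a log2 ratio of -2.91 when thinned and -1.70 with Kupffer cells alone. Between hepatocyte stages, 8 genes were lower with every barcode that passes a gate (background 18.9%). In 3 settings 1 gene was higher. These were median-of-ratios scaling (background 13.6%), no filter on low counts (background 10.0%) and at least 0.05% Malat1 (background 11.7%). The median was -0.64 when thinned, over 9 genes. The Kupffer median share was 3.47% with at least 2000 UMIs. Except for thinning, the cause was not tested. The depth window, both ways of counting barcodes of both gates and the Malat1 limit for macrophages were chosen after seeing the data. Kupffer cells could not be compared with other macrophages in the macroscopic library, which held 1 Kupffer barcode. No paired analysis was possible because each stage is 1 library with no replicate.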

Other observations

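Barcodes outside the classes also carried the lysosomal genes. The 263 early barcodes that passed no gate had a median share of 0.777% of their UMIs (quartiles 0.305% and 1.94%, highest 6.38%), and the 106 macroscopic ones 0.228% (quartiles 0.0192% and 0.551%, highest 4.30%). The 96 early barcodes of both macrophage gates had a median of 4.5%. Low shares were thus common among ungated barcodes of both libraries, while some reached the level of macrophages.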
